A study of Mus musculus with 12 samples.

Results

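The 10 genes described here are ones that neurons transcribe after synaptic activity and that were measured in the hippocampus of aged APPswe mice: Npas4, Arc, Homer1, Bdnf, Nptx2, Ier2, Dusp1, Dusp6, Arl5b and Arrdc3. They were chosen by name as activity-induced neuronal genes, with no threshold on their values but with earlier results of these data known. All 10 of 10 were present among the 14881 genes of the count table. RNA sequencing was done on 12 male APPswe mice aged 22 to 26 months, 1 library per mouse and 3 mice per group. Each animal had an intracisternal injection of 5 µL of an AAV1 viral vector and weekly antibody at 40 mg/kg into the peritoneum. The vector carried either eGFP, the control, or mVEGF-C, which drives lymphatic vessel growth, both driven by the CMV promoter, which is not restricted to one cell type. The antibody was either mIgG, the control, or mAdu (mAducanumab, an antibody against amyloid beta). The groups were eGFP+mIgG (mice 1, 2 and 3), eGFP+mAdu (mice 4, 5 and 6), mVEGF-C+mIgG (mice 7, 8 and 9) and mVEGF-C+mAdu (mice 10, 11 and 12). All 4 groups carried the APPswe background, a vector and an antibody, so by the labels no group was untreated and none lacked the transgene.

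When a glutamatergic synapse drives calcium into a neuron, kinases carry the signal to the nucleus and a first wave of genes is transcribed without new protein synthesis. Some of these genes encode transcription factors, such as Npas4, and others encode proteins that act directly at the synapse, such as Arc and the short form of Homer1. In the hippocampus these genes are used as markers of recent neuronal firing and take part in plasticity and memory, while phosphatases such as Dusp1 and Dusp6 switch the kinase signal off again.

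The promoters of the 4 genes that passed a test in at least 1 comparison and that had an entry in the sequence table are printed here because 3 of them, Homer1, Arl5b and Arrdc3, were higher in every mVEGF-C mouse than in every eGFP mouse given the same antibody, while Npas4 was high in mVEGF-C+mIgG alone. Each is a RefSeq window (GRCm38.p6) of 300 bases, 250 before to 50 after a start site, read 5′ to 3′ on the gene's strand. Capitals mark TGACG or its complement CGTCA, the core of the site bound by CREB, a factor that calcium signalling activates.
Npas4, chr19:4989922-4990221, minus strand: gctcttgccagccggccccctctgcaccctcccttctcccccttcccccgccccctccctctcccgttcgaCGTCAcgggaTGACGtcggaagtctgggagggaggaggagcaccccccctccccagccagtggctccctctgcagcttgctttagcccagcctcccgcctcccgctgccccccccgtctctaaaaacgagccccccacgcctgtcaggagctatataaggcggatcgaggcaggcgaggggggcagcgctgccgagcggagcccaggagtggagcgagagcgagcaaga
Homer1, the first of 2 starts, chr13:93303507-93303806, plus strand: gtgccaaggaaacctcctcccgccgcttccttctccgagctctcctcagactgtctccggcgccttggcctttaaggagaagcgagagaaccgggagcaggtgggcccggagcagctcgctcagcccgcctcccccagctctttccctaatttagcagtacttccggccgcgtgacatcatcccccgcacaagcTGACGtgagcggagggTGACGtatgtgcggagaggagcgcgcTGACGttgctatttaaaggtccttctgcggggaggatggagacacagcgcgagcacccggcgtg
Arl5b, chr2:15055070-15055369, plus strand: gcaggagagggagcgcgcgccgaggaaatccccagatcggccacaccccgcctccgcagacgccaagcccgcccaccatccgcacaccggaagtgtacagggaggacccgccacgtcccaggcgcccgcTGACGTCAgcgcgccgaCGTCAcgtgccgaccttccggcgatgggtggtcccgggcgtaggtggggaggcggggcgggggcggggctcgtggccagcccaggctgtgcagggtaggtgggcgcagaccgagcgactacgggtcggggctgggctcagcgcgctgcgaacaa
Arrdc3, the first of 3 starts, chr13:80883134-80883433, plus strand: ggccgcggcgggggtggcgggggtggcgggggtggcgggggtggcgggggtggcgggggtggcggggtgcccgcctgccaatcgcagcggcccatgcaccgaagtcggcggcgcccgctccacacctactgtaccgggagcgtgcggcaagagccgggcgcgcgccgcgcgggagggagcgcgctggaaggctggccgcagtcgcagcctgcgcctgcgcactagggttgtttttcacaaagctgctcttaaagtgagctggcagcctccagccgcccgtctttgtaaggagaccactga
Npas4 held TGACG on the minus strand 179 bases and on the plus strand 169 bases before its start. Homer1 held it on the plus strand 56, 40 and 14 bases before its start. Arl5b held the full palindrome TGACGTCA 121 bases before its start, and a further TGACG on the minus strand 104 bases before it. The first Arrdc3 window had no match, and the window of start 3, not printed, held TGACG on the minus strand 248 bases before it. Dusp1, not printed, held TGACGTCA 143 bases before its start. Over all 32851 windows searched on both strands, 20.8% held TGACG and 1.79% held TGACGTCA, which contains TGACG. Windows were found for 7 of the 10 genes, 16 in all, of which 6 held TGACG and 2 held TGACGTCA. Arc, Nptx2 and Ier2 had no entry. The CArG box, the site of serum response factor, was found in none of the 16 windows and in 1.63% of all, and TATAAA in none of the 16 and in 13.6% of all.

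The libraries held 23213612 to 29295266 counted reads. The submitters' design text gives the tissue as right hippocampus, while the source label says brain meninges. Summed markers of excitatory neurons (7 of 7 measured) stood at 2007 to 2265 counts per 1000000 reads (CPM, scaled by TMM) per library, those of dentate granule cells (6 of 6) at 392.7 to 507.2 CPM, and those of meningeal fibroblasts (6 of 6) at 54.07 to 136.3 CPM, so the libraries held neuronal and hippocampal RNA throughout. Library 3, 6, 9 and 12 each lay between the other 2 of its group for 61.5%, 73.2%, 71% and 76.5% of the genes that varied in that group. If these 4 libraries share material with the other libraries of their group, the p-values here are too small. The results were therefore recomputed on the other 8 libraries, where none of the 10 genes passed in any comparison, while the 13 log2 values that had passed kept their sign and moved by at most 0.05. Of the 67 values that had not passed, 7 changed sign and the largest move was 0.27, for Ier2. App was lowest in mouse 5 (1342 CPM) and intermediate in mouse 6 (3716 CPM), while the remaining 10 animals spanned 4721 to 5507 CPM. In bulk tissue, fewer cells of a type and less RNA per cell cannot be told apart.

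Compared per length, in CPM per kilobase of exon averaged over the 12 mice, Arc was the most abundant of the 10 at 54.8. Its range over mice, 34.6 to 76.5, did not reach that of Dusp6, the next, which averaged 23.5 with a range of 17.1 to 29.3. Homer1 at 16.5 and Arrdc3 at 14.5 followed with overlapping ranges, and Homer1 also overlapped Dusp6. Bdnf at 10.0 and Nptx2 at 8.95 overlapped each other, and Arl5b followed at 4.13, with a range of 3.43 to 5.19 whose lower end met those of the 3 remaining genes. Ier2 at 2.63, Dusp1 at 2.43 and Npas4 at 1.94 formed the low end and overlapped. Npas4 also varied most over the 12 mice, 2.88-fold from lowest to highest, followed by Dusp1 at 2.78-fold and Arc at 2.21-fold, and Bdnf varied least at 1.24-fold. The low level of Npas4 was carried by 124 to 358 reads per library.

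**Figure D1:**
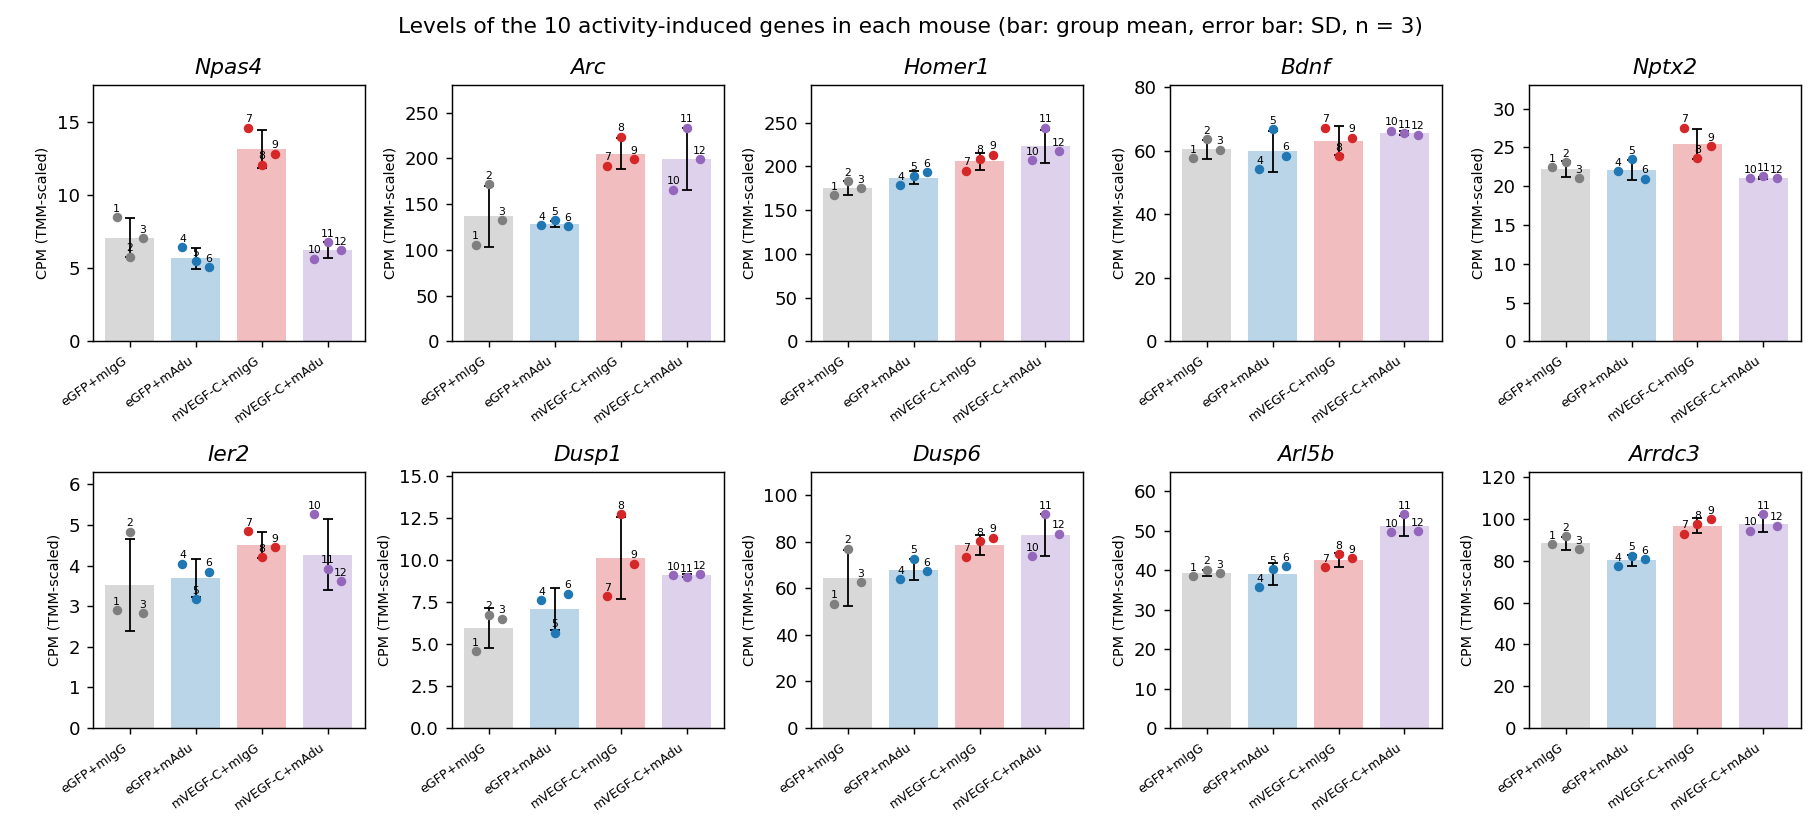
Level of each of the 10 genes in each mouse, in TMM-scaled CPM on axes that start at 0. Points are single mice with their numbers, bars are group means and error bars the SD of 3 mice. Npas4 is high in mice 7, 8 and 9 alone. All the genes but Npas4 and Nptx2 have higher means in both mVEGF-C groups than in both eGFP groups.

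Npas4 (ENSMUSG00000045903, chr19:4984355-4990316 in mm10, minus strand) encodes a neuron-specific transcription factor induced by calcium entry, which then drives genes that adjust inhibitory synapses. In eGFP+mIgG its level was 8.46, 5.76 and 7.02 CPM in mice 1, 2 and 3, and in eGFP+mAdu it was 6.44, 5.45 and 5.07 CPM in mice 4, 5 and 6. In mVEGF-C+mIgG it was 14.6, 12.0 and 12.8 CPM in mice 7, 8 and 9, and in mVEGF-C+mAdu it was 5.65, 6.75 and 6.24 CPM in mice 10, 11 and 12. Every mVEGF-C+mIgG mouse was above every one of the other 9 mice, and the other 3 groups overlapped one another. The group means were 7.08 ± 1.35, 5.66 ± 0.708, 13.1 ± 1.30 and 6.21 ± 0.553 CPM (SD, n = 3) in the same order.

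With mIgG, Npas4 was 1.84-fold higher in mVEGF-C than in eGFP mice. The log2 change was 0.88 (SE 0.13, 95% interval 0.61 to 1.15), with an adjusted p of 0.0133 (edgeR's quasi-likelihood test, Benjamini-Hochberg over all genes, which gave every adjusted p here unless another is named). Beside mAdu the vector gave a log2 change of 0.13 (SE 0.14, interval -0.17 to 0.43, edgeR adjusted p = 0.708). Within the mVEGF-C vector, mAdu mice had 0.473 times the Npas4 of mIgG mice (log2 change -1.08, SE 0.13, interval -1.36 to -0.81, edgeR adjusted p = 0.00269). These comparisons share groups: the mVEGF-C+mIgG mice enter both calls. With the eGFP vector the mAdu difference was -0.33 (SE 0.14), with an unadjusted p of 0.029 and an adjusted p of 0.486 by edgeR. The test of the difference itself, the interaction of vector and antibody, gave -0.75 (SE 0.19, interval -1.15 to -0.35), with an unadjusted p of 0.00113 and an adjusted p of 0.408 over all genes by edgeR, so Npas4 was not called there. The mVEGF-C+mAdu mice differed from the eGFP+mIgG mice by -0.20 (SE 0.14, edgeR adjusted p = 0.432).

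The fall of Npas4 with mAdu in mVEGF-C mice passed whichever single library was left out. Its rise with mVEGF-C beside mIgG no longer passed without mouse 3 (log2 0.87, edgeR adjusted p = 0.0867), without mouse 9 (0.90, adjusted p = 0.109) or with only those 6 libraries in the fit (0.88, adjusted p = 0.109). On 8 libraries, without mice 3, 6, 9 and 12, the values were -1.10 (adjusted p = 0.997) and 0.90 (adjusted p = 1). Markers of oligodendrocytes (6 of 6 measured) were summed at 4167 to 5019 CPM in mVEGF-C+mIgG against 3708 to 4306 in eGFP+mIgG and 4059 to 4129 in mVEGF-C+mAdu. Among them only Mobp passed, at 0.44 for mVEGF-C beside mIgG (edgeR adjusted p = 0.0117) and -0.34 for mAdu in mVEGF-C mice (edgeR adjusted p = 0.0377). The part of the oligodendrocyte markers in the result was not tested. Markers of striatal neurons (6 of 6) stood at 59.36 to 81.14 CPM in mVEGF-C+mIgG and 52.35 to 62.01 in mVEGF-C+mAdu, and their part was not tested either. Excitatory neuron markers spanned 2007 to 2206 CPM in mVEGF-C+mIgG, 2104 to 2265 in eGFP+mIgG and 2065 to 2084 in mVEGF-C+mAdu, ranges that overlap. Microglial markers (6 of 6) stood at 456.1 to 497.6 CPM in mVEGF-C+mIgG and 406.9 to 413.5 in mVEGF-C+mAdu, without overlap, and C1qa among them was lower there (edgeR adjusted p = 0.0429). Choroid plexus markers (5 of 6) stood at 48.48 to 54.34 CPM in mVEGF-C+mIgG, 56.72 to 102.6 in eGFP+mIgG and 39.74 to 43.29 in mVEGF-C+mAdu. Endothelial markers (6 of 6) stood at 96.2 to 103.2 CPM in mVEGF-C+mIgG against 89.96 to 92.46 in eGFP+mIgG. The part of these 3 lists in the results for Npas4 was not tested. Dentate granule cell markers (6 of 6) spanned 392.7 to 507.2 CPM in mVEGF-C+mIgG, 459.5 to 479.3 in eGFP+mIgG and 415.7 to 428.2 in mVEGF-C+mAdu. Markers of CA3 pyramidal cells (5 of 5) spanned 345.7 to 449.9, 395.1 to 488.2 and 388.4 to 435.9 CPM. In mice 1 to 3 and 7 to 9 both lists ranked as Npas4 did, in mice 4 to 6 only CA3, and in mice 10 to 12 neither. Their part was not tested either.

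**Figure D2:**
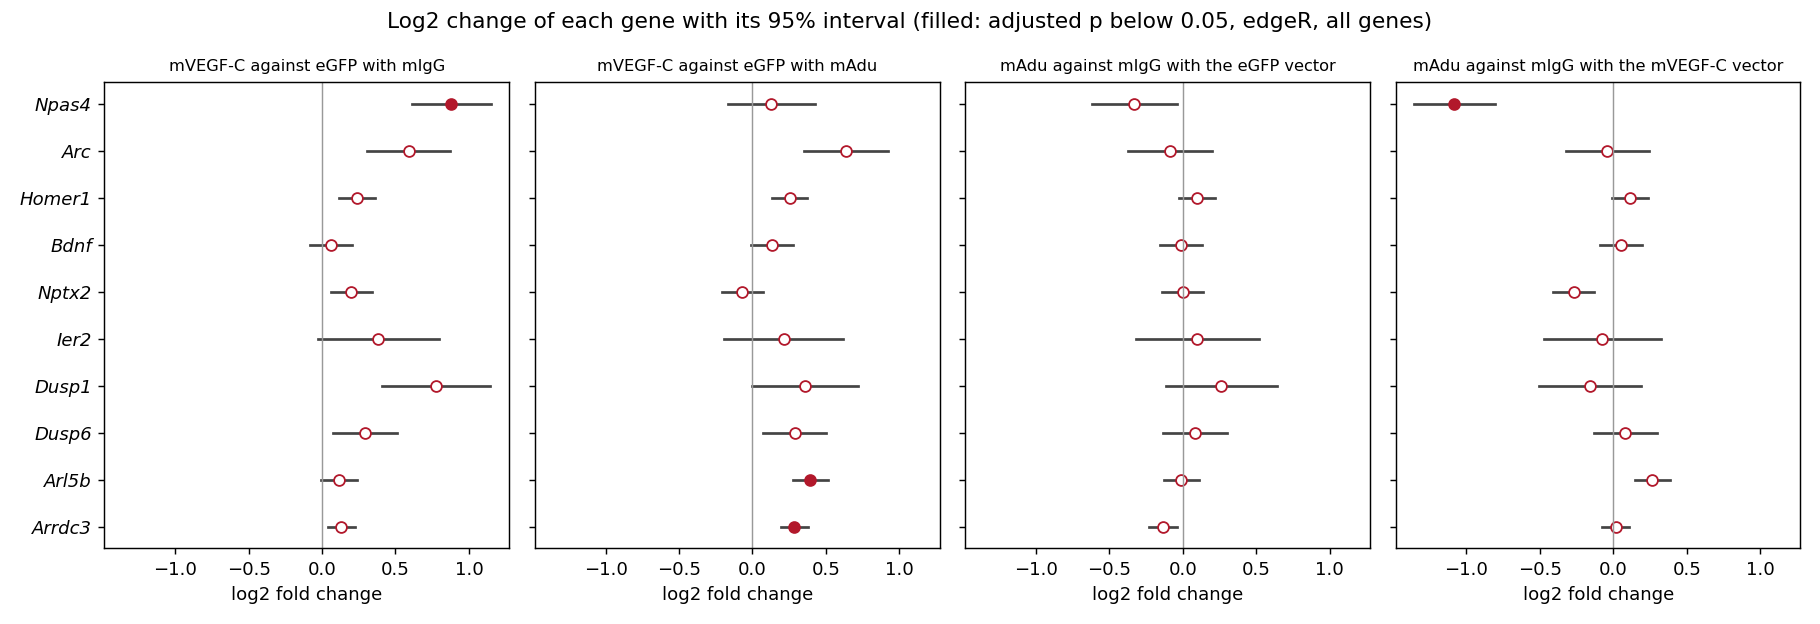
Log2 change of each gene (points) with its 95% interval (lines) in the 4 comparisons of 1 agent at a time. Filled points passed at an adjusted p below 0.05: Npas4 in both comparisons that involve mVEGF-C+mIgG, and Arl5b and Arrdc3 for mVEGF-C beside mAdu.

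Among the effectors at the synapse, Arc and Homer1 had higher means in both mVEGF-C groups than in both eGFP groups. So had Bdnf, Ier2, Dusp1, Dusp6, Arl5b and Arrdc3, but not Npas4 or Nptx2. Arc (ENSMUSG00000022602, chr15:74669083-74672570, minus strand) encodes a dendritic protein that promotes internalisation of AMPA receptors. Its level was 106, 172 and 132 CPM in eGFP+mIgG, 127, 132 and 126 CPM in eGFP+mAdu, 192, 224 and 199 CPM in mVEGF-C+mIgG, and 166, 234 and 199 CPM in mVEGF-C+mAdu. Mouse 2, at 172 CPM, was the one eGFP mouse above the lowest mVEGF-C mouse, mouse 10 at 166 CPM, and all other eGFP mice lay below all mVEGF-C mice. The log2 change with mVEGF-C was 0.59 (SE 0.13, interval 0.31 to 0.87, edgeR adjusted p = 0.28) beside mIgG and 0.64 (SE 0.13, interval 0.35 to 0.92, adjusted p = 0.0808) beside mAdu, neither of which passed. The mVEGF-C+mAdu mice were above the eGFP+mIgG mice by 0.55 (SE 0.13, edgeR adjusted p = 0.045), a call lost without any one of mice 1, 3, 4, 6, 9, 10, 11 or 12 (adjusted p from 0.051 to 0.178), without mice 5 and 6 together (adjusted p = 0.0752) and by DESeq2's Wald test (adjusted p = 0.0735). Mice 4, 6 and 9 are in neither group of that comparison, and without any one of them the log2 change stayed at 0.55. The antibody differences were -0.09 (SE 0.14) with eGFP and -0.04 (SE 0.13) with mVEGF-C, with intervals of -0.37 to 0.20 and -0.32 to 0.24, and the interaction term was 0.05 (SE 0.19).

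Homer1 (ENSMUSG00000007617, chr13:93299635-93405129, plus strand) encodes a postsynaptic scaffold. Its long forms link metabotropic glutamate receptors to the postsynaptic density and its short, activity-induced form uncouples them. Counts per gene do not separate the forms. The levels were 167, 183 and 175 CPM in eGFP+mIgG, 178, 189 and 194 CPM in eGFP+mAdu, 195, 209 and 214 CPM in mVEGF-C+mIgG, and 207, 244 and 217 CPM in mVEGF-C+mAdu. All 6 mVEGF-C mice were above all 6 eGFP mice, with mouse 6 just below mouse 7. The vector gave 0.24 (SE 0.06, edgeR adjusted p = 0.306) beside mIgG and 0.25 (SE 0.06, adjusted p = 0.0961) beside mAdu, and the groups with both agents and with neither differed by 0.35 (SE 0.06, interval 0.23 to 0.47, adjusted p = 0.0101). That last call was lost without mouse 1 (adjusted p = 0.0631) and without mouse 12 (adjusted p = 0.0502). The antibody differences of Homer1 were 0.10 (SE 0.06) with eGFP and 0.12 (SE 0.06) with mVEGF-C, and the interaction term was 0.02 (SE 0.08), all with intervals that held 0.

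Nptx2 (ENSMUSG00000059991, chr5:144545902-144557478, plus strand), a secreted pentraxin that clusters AMPA receptors on inhibitory neurons, had levels of 22.4, 23.1 and 21.03 CPM in eGFP+mIgG and 21.9, 23.5 and 20.9 CPM in eGFP+mAdu. It stood at 27.5, 23.6 and 25.1 CPM in mVEGF-C+mIgG and at 21.05, 21.26 and 21.01 CPM in mVEGF-C+mAdu. All 3 mVEGF-C+mIgG mice were above the other 9, as for Npas4, with mouse 8 just above mouse 5. The mAdu difference in mVEGF-C mice was -0.27 (SE 0.07, interval -0.41 to -0.13, edgeR adjusted p = 0.104), and the mVEGF-C difference beside mIgG was 0.20 (SE 0.07, adjusted p = 0.551), so Nptx2 passed in neither. Its interaction term was -0.27 (SE 0.09, edgeR adjusted p = 0.666). The intervals for Nptx2 held 0 for mAdu with eGFP (-0.14 to 0.14), mVEGF-C beside mAdu (-0.21 to 0.07) and both agents against neither (-0.21 to 0.07).

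Bdnf (ENSMUSG00000048482, chr2:109674700-109727007, plus strand) encodes a neurotrophin that strengthens synapses and has many promoters, only some of which respond to activity. Its levels were 57.6, 63.6 and 60.3 CPM in eGFP+mIgG, 54.2, 66.7 and 58.4 CPM in eGFP+mAdu, 67.2, 58.2 and 64.0 CPM in mVEGF-C+mIgG, and 66.3, 65.5 and 65.0 CPM in mVEGF-C+mAdu. The ranges of the first 3 groups overlapped, and every interval for Bdnf held 0. The 4 comparisons of 1 agent gave log2 values between -0.02 and 0.13, with intervals that lay between -0.16 and 0.28. Its interaction term was 0.07 (SE 0.10), and both agents against neither gave 0.12 (SE 0.07). Counts per gene do not separate its promoters, and its exons overlap those of Gm45346 on the opposite strand, so with the strand setting not given in the sources used here some of its reads may belong to that gene.

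Among the regulators of kinase signalling, Dusp1 (ENSMUSG00000024190, chr17:26505590-26562128, minus strand) encodes a nuclear phosphatase that inactivates MAP kinases and is itself an immediate early gene. Its levels were 4.58, 6.74 and 6.50 CPM in eGFP+mIgG, 7.62, 5.67 and 7.99 CPM in eGFP+mAdu, 7.86, 12.7 and 9.80 CPM in mVEGF-C+mIgG, and 9.10, 8.97 and 9.18 CPM in mVEGF-C+mAdu. Mouse 8 was highest and mouse 1 lowest, and the vector groups separated within each antibody but not over all 12 mice, where mouse 6 exceeded mouse 7. The vector difference was 0.78 (SE 0.17, interval 0.41 to 1.14, edgeR adjusted p = 0.264) beside mIgG and 0.36 (SE 0.17, adjusted p = 0.353) beside mAdu, and both agents against neither gave 0.62 (SE 0.17, adjusted p = 0.0696). None of the comparisons passed by edgeR. DESeq2's Wald test called Dusp1 beside mIgG (adjusted p = 0.0149), for both agents against neither (0.0248) and with the antibodies averaged (0.00228), and limma-voom called it in the same 3 comparisons. Of all 14881 genes DESeq2 called 20, 436 and 148 there, and limma-voom 937, 2660 and 1789. The antibody differences were 0.26 (SE 0.18) with eGFP and -0.16 (SE 0.16) with mVEGF-C, and the interaction term was -0.42 (SE 0.24), all with intervals that held 0. Dusp1 exons overlap those of Ergic1 on the opposite strand, so its reads carry the same uncertainty as those of Bdnf.

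Dusp6 (ENSMUSG00000019960, chr10:99263231-99267489, plus strand), a cytoplasmic phosphatase specific for ERK, stood at 53.5, 77.1 and 62.7 CPM in eGFP+mIgG and 63.9, 72.7 and 67.4 CPM in eGFP+mAdu. In mVEGF-C+mIgG it was 73.5, 80.2 and 81.7 CPM, and in mVEGF-C+mAdu it was 73.9, 91.7 and 83.4 CPM. Mouse 2 was again high within its group, above mice 7 and 10. The vector difference was 0.29 under both antibodies (SE 0.10, edgeR adjusted p = 0.554 beside mIgG and 0.217 beside mAdu), and both agents against neither gave 0.37 (SE 0.10, adjusted p = 0.0639). Both antibody differences of Dusp6 were 0.08 (SE 0.10), and the interval of its interaction term ran from -0.31 to 0.30. Ier2 (ENSMUSG00000053560, chr8:84661331-84662852, minus strand), an immediate early gene for a nuclear protein, had group means of 3.52 ± 1.14, 3.69 ± 0.464, 4.51 ± 0.320 and 4.27 ± 0.873 CPM (SD, n = 3), and the groups overlapped in every comparison. Its vector differences were 0.38 (SE 0.19) beside mIgG and 0.21 (SE 0.19) beside mAdu, its antibody differences 0.10 (SE 0.20) with eGFP and -0.08 (SE 0.19) with mVEGF-C, its interaction term -0.17 (SE 0.27) and both agents against neither 0.31 (SE 0.19), all with intervals that held 0. On 8 libraries the antibody differences were -0.07 and 0.02 and the interaction term 0.09, each of the opposite sign.

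Arl5b and Arrdc3, which act in membrane traffic, passed for mVEGF-C beside mAdu. Arl5b (ENSMUSG00000017418, chr2:15049395-15082456, plus strand) encodes a small GTPase of the ARF family at the trans-Golgi. Its levels were 38.6, 40.1 and 39.2 CPM in eGFP+mIgG, 35.8, 40.3 and 41.1 CPM in eGFP+mAdu, 40.8, 44.0 and 43.0 CPM in mVEGF-C+mIgG, and 49.7, 54.2 and 49.9 CPM in mVEGF-C+mAdu. The 3 mVEGF-C+mAdu mice were above all other 9, and mouse 7 lay within the eGFP+mAdu range. Beside mAdu Arl5b was higher with mVEGF-C by 0.39 (SE 0.06, interval 0.27 to 0.51, 1.31-fold, edgeR adjusted p = 0.0176), against 0.12 (SE 0.06, adjusted p = 0.635) beside mIgG. The mAdu difference in mVEGF-C mice was 0.27 (SE 0.06, adjusted p = 0.0599), just short of the threshold, and with eGFP it was -0.01 (SE 0.06). The interaction term was 0.28 (SE 0.08, edgeR adjusted p = 0.504), so the vector difference was not shown to depend on the antibody. The mVEGF-C+mAdu mice exceeded the eGFP+mIgG mice by 0.38 (SE 0.06, edgeR adjusted p = 0.00721), and this call held whichever single library was left out, with a largest adjusted p of 0.0405.

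Arrdc3 (ENSMUSG00000074794, chr13:80883384-80896042, plus strand) encodes an arrestin-domain protein that directs receptors to degradation. Its levels were 87.8, 91.8 and 85.5 CPM in eGFP+mIgG, 77.5, 82.5 and 80.8 CPM in eGFP+mAdu, 92.9, 97.4 and 99.95 CPM in mVEGF-C+mIgG, and 94.3, 102 and 96.9 CPM in mVEGF-C+mAdu. All 6 mVEGF-C mice were above all 6 eGFP mice, and the eGFP+mAdu mice were below the eGFP+mIgG mice. Beside mAdu it was higher with mVEGF-C by 0.29 (SE 0.04, interval 0.19 to 0.38, 1.22-fold, edgeR adjusted p = 0.0271), and beside mIgG it gave 0.13 (SE 0.04, adjusted p = 0.554). The mAdu difference with eGFP was -0.14 (SE 0.04, edgeR adjusted p = 0.372) and the interaction term 0.15 (SE 0.06, adjusted p = 0.697), neither of which passed. With mVEGF-C the mAdu difference was 0.02 (SE 0.04), and both agents against neither gave 0.15 (SE 0.04, edgeR adjusted p = 0.0812).

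The 2 calls beside mAdu were lost in several fits that left out 1 library. Arl5b was lost without any one of mice 3, 4, 6, 11 or 12 (edgeR adjusted p from 0.0551 to 0.116), and Arrdc3 without any one of mice 3, 4, 6, 9, 11 or 12 (adjusted p from 0.0558 to 0.172). Mice 3 and 9 are in neither group compared and enter through the spread estimated over all groups. Arl5b gave 0.39 without mouse 3, and Arrdc3 gave 0.28 without mouse 3 and 0.29 without mouse 9. With only the groups compared in the fit both genes passed (edgeR adjusted p = 0.0219 for each). Without mice 5 and 6, those with low App, Arl5b gave 0.52 (edgeR adjusted p = 0.0229) and Arrdc3 0.34 (adjusted p = 0.0501). On 8 libraries the values were 0.45 and 0.29, both with an edgeR adjusted p of 0.876. In the same comparison microglial markers (6 of 6) were summed at 406.9 to 413.5 CPM in mVEGF-C+mAdu against 427.7 to 501.7 in eGFP+mAdu, and choroid plexus markers (5 of 6) at 39.74 to 43.29 CPM against 72.14 to 88.05. Meningeal markers (6 of 6) stood at 79.63 to 93.41 CPM against 104.6 to 136.3, and striatal markers (6 of 6) at 52.35 to 62.01 CPM against 70.52 to 79.29. The part of these 4 lists in the results was not tested.

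Taking the 10 genes comparison by comparison, the vector contrasts had larger medians than the antibody contrasts. The 10 genes and the further lists below were chosen with earlier results of these data known. The shares of all genes set beside them are therefore a description. For mVEGF-C beside mIgG, all 10 log2 values were above 0, with a median of 0.26 against 0.00 for all genes, and 1 gene (Npas4) passed. In that comparison 0.0403% of the 14881 genes tested passed in either direction. At an unadjusted edgeR p below 0.05 there were 7 of the 10, all higher, against 7.91% of all genes in either direction. The 3 mVEGF-C mice lay above the 3 eGFP mice for 7 of the 10 genes, against 6.38% of all genes. For mVEGF-C beside mAdu, 9 of 10 values were above 0, the exception being Nptx2 at -0.07, with a median of 0.27 against 0.00 for all genes. There 2 genes (Arl5b and Arrdc3) passed, against 0.047% of all genes, and 6 of the 10 did not overlap, against 11.5% of all genes. At an unadjusted edgeR p below 0.05 there were 5, all higher, against 14.3% of all genes in either direction.

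For mAdu with the eGFP vector, none of the 10 genes passed by edgeR, DESeq2 or limma-voom, and 2 (Npas4 and Arrdc3) were lower at an unadjusted edgeR p below 0.05, which 9.21% of all genes met. Of all genes 0.0336% passed there. Arrdc3 did not overlap between the groups, against 7.78% of all genes lower. The median of the 10 was -0.01. For mAdu with the mVEGF-C vector 1 gene (Npas4) passed, lower, against 0.208% of all genes in either direction, and the median was -0.01 with 5 values above and 5 below 0. Npas4 and Nptx2 were lower and Arl5b higher without overlap between the groups, against 8.12% of all genes lower and 8.37% higher. The same 3 genes had an unadjusted edgeR p below 0.05, which 12.7% of all genes met. The interaction called none of the 10 by edgeR or DESeq2 and 1 (Npas4) by limma-voom. Of all 14881 genes edgeR called 2 there (0.0134%), DESeq2 8 and limma-voom 220. At an unadjusted edgeR p below 0.05 the interaction held 2 genes above 0 (Arl5b and Arrdc3) and 2 below (Npas4 and Nptx2), against 6.82% of all genes.

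For the group with both agents against the double control, 3 genes (Arc, Homer1 and Arl5b) passed, all higher, against 2.18% of all genes, and the median was 0.33 against 0.00 for all genes. In the same comparison 5 of the 10 did not overlap, against 13.9% of all genes higher. With the 2 antibodies averaged, a contrast added after seeing the data, mVEGF-C gave values above 0 for all 10 genes, with a median of 0.27. In that contrast 5 passed, all higher (Npas4, Arc, Homer1, Arl5b and Arrdc3), against 0.39% of all genes. Arc gave 0.61 (SE 0.09, edgeR adjusted p = 0.0148), Npas4 0.50 (SE 0.09, adjusted p = 0.0322), Arl5b 0.26 (SE 0.04, adjusted p = 0.0155), Homer1 0.24 (SE 0.04, adjusted p = 0.0192) and Arrdc3 0.21 (SE 0.03, adjusted p = 0.0116). The value for Npas4 is an average of 0.88 and 0.13 and describes neither antibody. Homer1 and Arrdc3 were the 2 genes for which the 6 mVEGF-C mice did not overlap the 6 eGFP mice, against 0.612% of all genes higher. With the vectors averaged, mAdu gave 1 call among the 10, Npas4 at -0.71 (SE 0.09, edgeR adjusted p = 0.00377), against 0.571% of all genes. It is an average of -0.33 with eGFP, which did not pass, and -1.08 with mVEGF-C, and describes neither vector. The call for Npas4 with the vector was lost without any one of mice 3, 6, 9, 11 or 12, and Arc without 3, 6, 9 or 12. Without mice 5 and 6, those with low App, the Npas4 value was 0.41 instead of 0.50. Homer1 was lost without any one of mice 1, 3, 4, 6, 9 or 12, Arl5b without 3 or 9, and Arrdc3 without 3, 6 or 9 (edgeR adjusted p from 0.0542 to 0.101 for the 5 genes). Without mice 3, 6, 9 and 12 together none of these averaged calls held (edgeR adjusted p = 0.816 for the 5 vector calls and 0.835 for the antibody call).

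**Figure D3:**
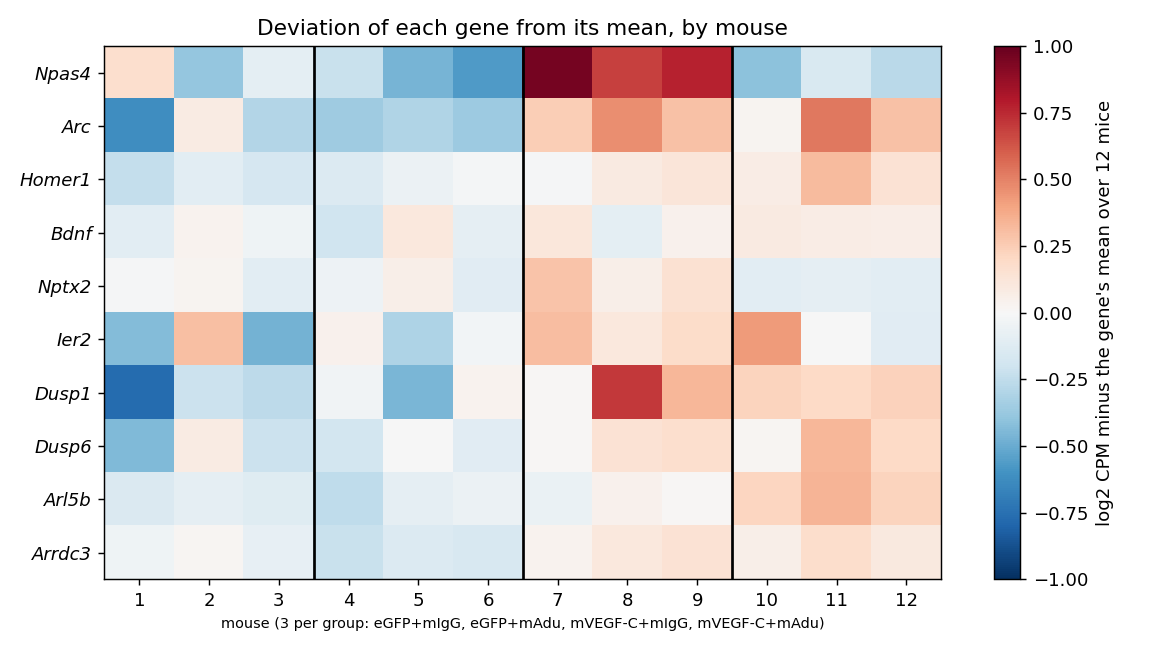
Deviation of each gene's log2 CPM from its mean over the 12 mice, by mouse, on a colour scale from -1 to 1. Black lines divide the groups. Npas4 is high in mice 7, 8 and 9, while mice 10, 11 and 12 lie within the range of the eGFP mice. Arc, Homer1 and Dusp6 are above their means or near them in both mVEGF-C groups.

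The ratio of Npas4 to Arc separated the antibodies within mVEGF-C, as the level of Npas4 alone did, while Arc overlapped. On the log2 scale of CPM the ratio was -3.72, -4.22 and -3.96 in mVEGF-C+mIgG and -4.88, -5.11 and -5.00 in mVEGF-C+mAdu, with no overlap. In eGFP+mIgG it was -3.64, -4.90 and -4.24, and in eGFP+mAdu -4.30, -4.60 and -4.64. Mice 1 and 2 of eGFP+mIgG therefore spanned nearly the whole range of the study, since mouse 1 had the highest Npas4 and the lowest Arc of its group and mouse 2 the reverse. With group means removed, Npas4 correlated negatively with 8 of the other 9 genes, from -0.59 (Dusp1) to -0.29 (Bdnf), the exception being Nptx2 at 0.23. These are correlations over 12 libraries in 4 groups, in which libraries 3, 6, 9 and 12 may not be separate points, and they are given as a description.

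The 5 genes whose log2 CPM was most like that of Npas4 over the 12 libraries were Pcdhga2 (Pearson r 0.91, Spearman rho 0.92), Ppie (0.90 and 0.86), Cd83 (0.88 and 0.80), Cdnf (0.87 and 0.93) and Matn2 (0.87 and 0.86). Pcdhga2 encodes a clustered protocadherin, whose reads may be shared with other genes of its cluster, and it averaged 16.4, 14.2, 18.7 and 16.0 CPM in the 4 groups. With group means removed r was 0.87 for Pcdhga2, 0.79 for Ppie and 0.87 for Cdnf, but 0.24 for Cd83 and 0.45 for Matn2. Among the 10 genes Nptx2 came closest to Npas4, with r of 0.79, the 25th highest of the genes compared, and Arl5b was farthest, with r of -0.08. Libraries within a group share their treatment.

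The other rapid early genes, a list of 28 including the Fos, Egr and Nr4a transcription factors, were measured in full. Beside mIgG, mVEGF-C gave values above 0 for 23 of 28 with a median of 0.21, and 1 passed, against 0.0403% of all genes. That gene was Fos, an AP-1 subunit, which rose by 1.02 on the log2 scale (SE 0.16, edgeR adjusted p = 0.026). Beside mAdu 23 of 28 were again above 0 with a median of 0.20, and none passed by edgeR, with 11 higher and 1 lower at an unadjusted p below 0.05, against 1109 higher and 1013 lower of all 14881 genes. Fos there gave 0.77 (SE 0.16, adjusted p = 0.0762) and Egr2, a zinc finger factor, 1.44 (SE 0.28, adjusted p = 0.0671). Fos averaged 29.6 ± 2.45 CPM (SD, n = 3) with mVEGF-C+mIgG, 29.1 ± 6.70 with mVEGF-C+mAdu, 14.8 ± 3.68 with eGFP+mIgG and 17.0 ± 1.68 with eGFP+mAdu. The mAdu difference of Fos in mVEGF-C mice was -0.02 (SE 0.15, edgeR adjusted p = 0.972), beside -1.08 (SE 0.13) for Npas4. That the 2 genes differ in this response was not tested. For both agents against neither, 6 of 28 passed, all higher, against 2.18% of all genes in either direction. They were led by Fos (0.99), Egr2 (1.57), Fosb (0.82) and Nr4a1 (0.67), with edgeR adjusted p values of 0.00995, 0.0173, 0.0304 and 0.0366. On 8 libraries Fos gave 0.96 beside mIgG and 1.00 for both agents, with edgeR adjusted p of 1 and 0.56, and with single libraries left out its call beside mIgG held in 6 of 12 fits and that for both agents in 10 of 12. The calls of Egr2, Fosb and Nr4a1 for both agents held in 9, 6 and 5 of 12 fits, and on 8 libraries each had an edgeR adjusted p of 0.56.

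The delayed activity genes, a list of 22, were less displaced. Their median was 0.07 for mVEGF-C beside mIgG, with 17 of 22 above 0, and 0.10 beside mAdu, with 14 of 22 above 0, and none passed by edgeR in either, while 5 and 6 were higher and 0 and 1 lower at an unadjusted p below 0.05. Of all 14881 genes, 549 were higher and 628 lower at that p beside mIgG, and 1109 and 1013 beside mAdu. Tiparp, an ADP-ribosyltransferase, passed for both agents against neither at 0.38 (SE 0.08, edgeR adjusted p = 0.032), a call that held in 5 of 12 fits with single libraries left out and had an adjusted p of 0.56 on 8 libraries. It was the 1 gene of the 22 that passed there, against 2.18% of all genes. No gene of the rapid early or the delayed list passed for mAdu with either vector by edgeR. At an unadjusted p below 0.05 the rapid early list had 0 higher and 1 lower with eGFP and 3 higher and 3 lower with mVEGF-C. The delayed list had 4 higher and 1 lower with eGFP and 1 higher and 0 lower with mVEGF-C. Over all genes the counts were 623 higher and 748 lower with eGFP and 899 and 996 with mVEGF-C.

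**Figure D4:**
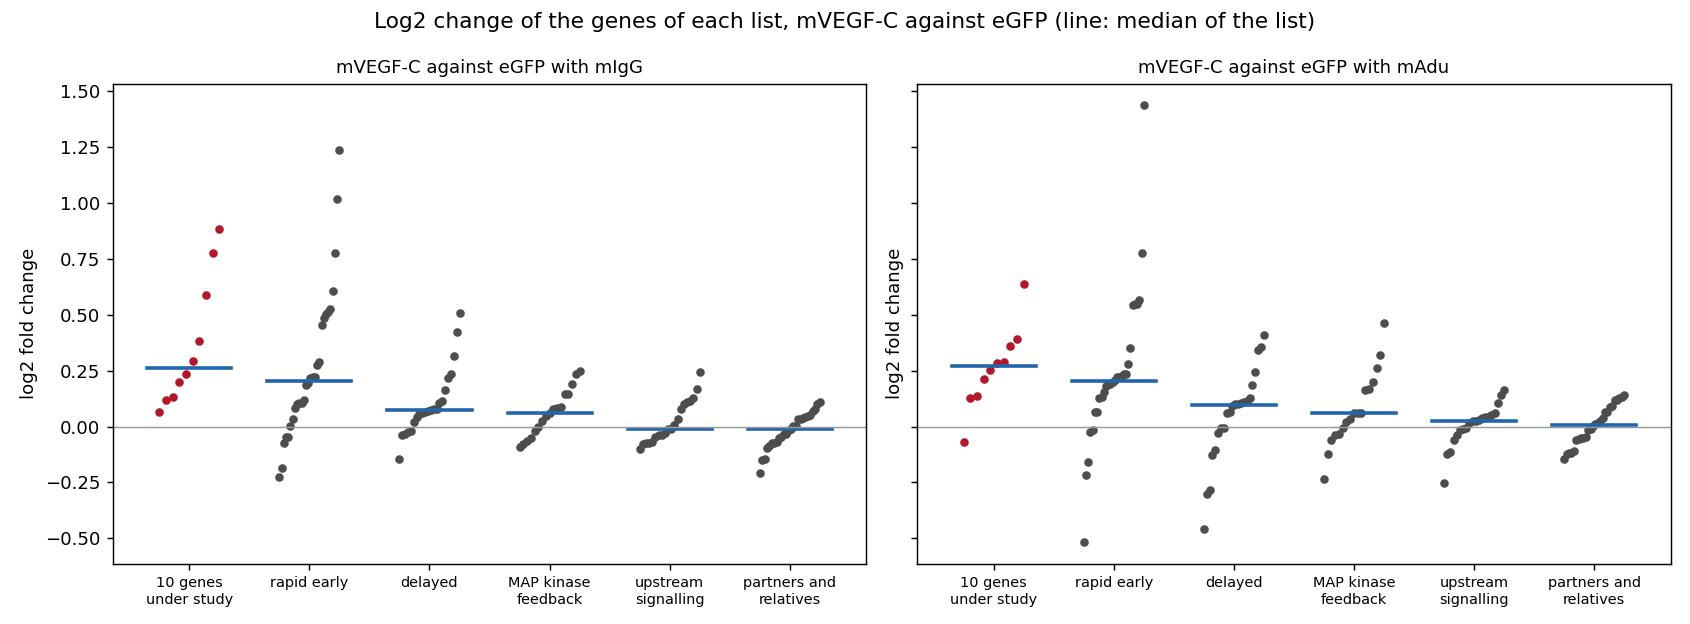
Log2 change of every gene of 6 lists with mVEGF-C against eGFP, beside mIgG (left) and beside mAdu (right). Points are genes sorted by value and lines are list medians: 0.26 and 0.27 for the 10 genes, 0.21 and 0.20 for the other rapid early genes, and -0.01 and 0.01 for the list of partners and relatives.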

How the data were processed

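RNA was sequenced from 12 hippocampi. The authors deposited a table of raw read counts per Ensembl gene, and the submitters' processing notes name STAR, featureCounts from Subread, edgeR, Trim Galore and FastQC with mm10. Versions, roles and strand setting: not given in the sources used here. Gene names and positions are from GENCODE M21 (14791 of 14881 identifiers named). Counts were scaled by TMM and fitted with edgeR 4.0.16 in R 4.3.3 (glmQLFit and glmQLFTest, two-sided, 1 mean per group, all 12 libraries), with Benjamini-Hochberg adjustment over all 14881 genes and a threshold of 0.05. filterByExpr removed 0 genes. The lowest gene total was 147 reads, and the common BCV 5.16%. CPM are TMM-scaled, and correlations used log2 CPM with a prior count of 2. The fit was tested on simulated counts with known changes.

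Contrasts were each agent within each level of the other, the interaction, both agents against neither, and, added after seeing the data, 2 averaged contrasts. They share groups, so their values are not independent. Alternatives were DESeq2 1.42.0 (its size factors and its Wald test), limma-voom 3.58.1 with sample quality weights, no filter, fits of only the groups compared, and leaving out each library, libraries 5 and 6, or libraries 3, 6, 9 and 12. Leaving out libraries 5 and 6 leaves 1 in eGFP+mAdu, which is then assumed to vary like the other groups.

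All 10 genes are named in every comparison but the 2 averaged contrasts, where those that passed are. Of the other lists, genes that passed are named, up to 4 per list and direction by smallest p, and further named genes (Fos and Egr2 beside mAdu, Arnt2, Homer3 and Dusp4) were chosen after their values were seen. The 5 genes most like Npas4 are those with the highest Pearson r among named, not predicted genes with a mean of at least 1 CPM. The members, lists and library sets were chosen with earlier results of these data known. The labels say that each library is 1 mouse and name no batch.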

Additional observations from a re-analysis of the deposited data

How the results depend on the processing

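No paired analysis was possible because the library numbers 1 to 12 are not shared between groups. Of 1490 recomputed values for single genes, 61 changed sign, all of them past the threshold in neither fit, with a log2 change of at most 0.17 as reported, 61 calls were lost and 42 gained. Without libraries 3, 6, 9 and 12, 0 of the 10 genes passed in any comparison. At an unadjusted edgeR p below 0.05 there were then 4 each for mVEGF-C beside mIgG and beside mAdu, and 3 for mAdu with mVEGF-C, against 1.77%, 5.09% and 4.59% of all genes. Counts over all genes fell with them, for example from 324 to 2 for both agents against neither. The design then has fewer samples, and the cause beyond that was not tested. DESeq2's Wald test called 2 for mAdu with mVEGF-C and 2 for mVEGF-C beside mIgG, 3 beside mAdu (Homer1 added) and 3 for both agents against neither, with Dusp1 in place of Arc. Over all genes that test called 126, 20, 104 and 436 in these 4 comparisons, against 31, 6, 7 and 324 by edgeR. limma-voom with weights called 3, 8, 5, 1 and 6 for mAdu with mVEGF-C, mVEGF-C beside mIgG, mVEGF-C beside mAdu, the interaction and both agents against neither, and 8 and 3 for the averaged vector and antibody contrasts. Over all genes limma-voom called 1234, 937, 970, 220, 2660, 1789 and 1681 in the same order, against 31, 6, 7, 2, 324, 58 and 85 by edgeR. With only the groups compared in the fit, 0 passed for mVEGF-C beside mIgG, against 2 of all genes. Beside mAdu 3 then passed (Arc, Arl5b and Arrdc3), against 62 of all genes. Without libraries 5 and 6, 1 passed for mVEGF-C beside mAdu. Leaving out 1 library gave 1 to 2 calls for mAdu with mVEGF-C (2 without library 4), 0 to 2 for mVEGF-C beside mIgG (0 without 3 or 9), 0 to 3 beside mAdu (0 without 3, 4, 6, 11 or 12), 1 to 5 for both agents (1 without 1 or 12, 5 without 7) and 0 to 7 for the averaged vector contrast (0 without 3 or 9, 1 without 6, 2 without 12). Counts over all genes in these fits also ranged widely: 2 to 138, 1 to 52, 0 to 110, 12 to 594 and 4 to 253 in the same order. The cause of these differences was not tested. The interaction and the averaged contrasts were not refitted on only the groups compared. Depth limits Ier2, Dusp1 and Npas4 most, with lowest library counts of 80, 126 and 124 reads.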

Other observations

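Of the genes upstream of the 10, a list of 20 receptors, channels, kinases and CREB factors, the median was -0.01 for mVEGF-C beside mIgG and 0.02 beside mAdu, close to the 0.00 of all genes. Creb1, which encodes the calcium-responsive factor CREB, passed for both agents against neither at 0.21 (SE 0.05, edgeR's quasi-likelihood test, Benjamini-Hochberg adjusted p = 0.0369). It averaged 80.6 ± 3.35 CPM (SD, n = 3) with neither agent and 93.0 ± 1.22 with both. Camk2b, a subunit of the calcium/calmodulin kinase that relays synaptic calcium, was lower with mAdu when the vectors were averaged, by -0.14 (SE 0.03, edgeR adjusted p = 0.0474), and 15 of the 20 genes were below 0 in that contrast. No other gene of the list passed in any comparison by edgeR. Of all 14881 genes, 2.18% passed for both agents against neither. With the vectors averaged 0.571% passed, and 7548 were below 0. On 8 libraries, without 3, 6, 9 and 12, Creb1 gave 0.23 (edgeR adjusted p = 0.56) and Camk2b -0.14 (adjusted p = 0.835), and with single libraries left out their calls held in 4 and 5 of 12 fits.

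The 26 partners and relatives of the 10 genes, such as the dimerisation partners of Npas4, the other Homer and pentraxin genes, AMPA receptor subunits and the Bdnf receptor, had medians of -0.01 and 0.01 for mVEGF-C beside mIgG and mAdu, and none passed by edgeR in any comparison. Arnt2, the dimerisation partner of Npas4, gave 0.00 (SE 0.04) for mAdu in mVEGF-C mice, where Npas4 gave -1.08 (SE 0.13). Homer3 was -0.37 (SE 0.07, edgeR adjusted p = 0.134) for mAdu with eGFP. At an unadjusted p below 0.05 the list had 0 higher and 2 lower for mVEGF-C beside mIgG, and 2 higher and 1 lower beside mAdu, where all 14881 genes had 549 higher and 628 lower, and 1109 and 1013. Among 17 further feedback regulators of MAP kinase, Spred1 passed for both agents against neither at 0.34 (SE 0.06, edgeR adjusted p = 0.0201), a call that held in 8 of 12 fits with single libraries left out and had an adjusted p of 0.56 on 8 libraries. It was the 1 gene of the 17 that passed there, against 2.18% of all genes. Dusp4, a nuclear phosphatase, gave 0.25 (SE 0.09, adjusted p = 0.555) for mVEGF-C beside mIgG and 0.32 (SE 0.09, adjusted p = 0.134) beside mAdu.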
